A study of Sorghum bicolor with 9 samples.

Results

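Homeobox-leucine zipper (HD-Zip) genes of the sorghum leaf were followed through 3 levels of water supply. Members were all genes whose Swiss-Prot protein name in the deposited gene descriptions holds "Homeobox-leucine zipper protein", which gave 56 of 34366 genes. They carry 39 different protein names, taken from rice proteins: 35 names stand on 1 gene each and 4 on several genes (HOX29, ROC2, ROC6 and ROC8). By the known class of the rice protein, 12 are class I, 12 class II, 7 class III and 25 class IV. Of the 56 genes, 36 passed the filter on low counts (10, 8, 6 and 12 by class) and could be tested; the other 20 did not.

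HD-Zip proteins are plant transcription factors that pair a DNA-binding homeodomain with a leucine zipper through which they dimerise. Class I genes are known for responses to water deficit and abscisic acid, and class II genes for shade and auxin responses. Class III genes set the upper side of the leaf and pattern the vascular tissue under the control of miR166, and class IV genes act in the epidermis.

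Leaves of Sorghum bicolor, a C4 cereal, came from plants given normal water (the control), mild drought or severe drought, and each group has 3 libraries. Total RNA was made into strand-specific libraries. The labels used here give no cultivar, plant age, length of drought or soil water level. They also do not say whether libraries of a group come from separate plants, so p-values reflect only how far these samples differ among themselves, and that spread may be technical. In whole leaves, fewer cells of a type and less RNA per cell cannot be told apart.

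The libraries held 27854146 to 41228478 counts. They did not line up by water supply on the main axis of variation: the first principal component (28.7% of the variance) set control 3, mild drought 2 and severe drought 1 and 2 apart from the other 5 libraries. Leaf mesophyll and bundle sheath markers were abundant in every library (29 genes, of which 1 was at 0 in all libraries). Their summed FPKM was 16563 to 37785 in the control, 13614 to 27268 in mild drought and 16070 to 31142 in severe drought. The sums were highest in the libraries that the first component set apart: control 3, mild drought 2 and severe drought 1 and 2. Guard cell markers were 8 genes, none at 0 in all libraries, of which 3 passed the filter. Their summed FPKM was 16.8 to 25.8 in the control, 6.77 to 16.1 in mild drought and 6.04 to 13.9 in severe drought. Both drought groups lay below the control and overlapped each other. Epidermal markers (51 genes) summed to 1600 to 3926 FPKM in the control, 3068 to 12469 in mild drought and 5448 to 6010 in severe drought. The ranges for vascular markers (30 genes) were 14.2 to 75.8, 12.1 to 78.5 and 36.7 to 76.3 in the same order. Dividing cell markers (31 genes) summed to 240 to 288 in the control, 188 to 288 in mild drought and 197 to 212 in severe drought. In severe drought the epidermal sums thus also lay clear above the control, and the dividing cell sums clear below it. The part of these markers in the results on HD-Zip genes was not tested.

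Levels across the family were compared as FPKM, which scale by transcript length. Class I dominated in every library and held 63.5% to 70.4% of the summed FPKM of the family. Class II held 10.7% to 17.6%, class IV 7.9% to 11.9% and class III 5.36% to 11.1%. HOX5 and HOX16, both class I, together made up 42% to 56.7% of the family's FPKM. The sum over all members was 540 ± 31 FPKM in the control, 550 ± 71.6 in mild drought and 495 ± 104 in severe drought (SD, n = 3), so the group means lay within the spread between libraries.

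**Figure D1:**
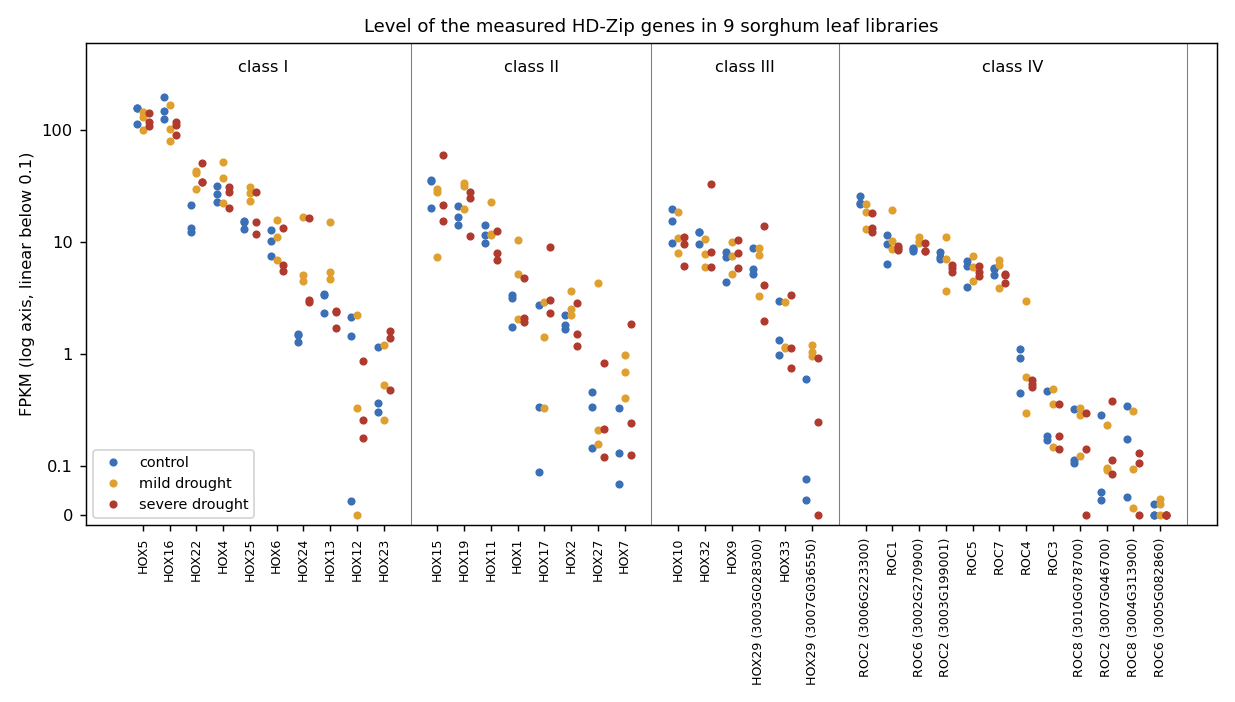
Deposited FPKM of the 36 tested HD-Zip genes in each library, on an axis that is logarithmic above 0.1 and linear below it, ordered by class; points are single libraries coloured by group. HOX5 and HOX16 stand highest, at means of 129 and 126 FPKM over the 9 libraries, and the class IV genes reach from 18.5 FPKM for ROC2 on chromosome 6 down to values near 0.

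After HOX5 and HOX16, the mean level dropped to 30.9 FPKM for HOX22, 30.1 for HOX4, 27.9 for HOX15 and 22.3 for HOX19. Next came HOX25 at 19.9 FPKM and the class IV gene ROC2 on chromosome 6 (SORBI_3006G223300) at 18.5 FPKM. HOX10, HOX11, HOX32 and ROC1 followed with 12.1, 12.1, 11.7 and 10.2 FPKM, close enough that their order is not fixed beyond the spread between libraries. Of the 6 steadiest tested members, 4 were class IV. The ratio of the highest to the lowest library, in CPM (counts after scaling for library size and composition), was 1.56 for ROC6 on chromosome 2, 1.82 for ROC7, 1.95 for ROC2 on chromosome 6 and 1.98 for ROC5. Class I gave HOX4 (1.93) and HOX5 (1.97) among the steady ones. At the other end, among tested members with a count in all 9 libraries, stood HOX17 (93.3), HOX7 (25.8), HOX27 (23.9), ROC2 on chromosome 7 (15.4), HOX24 (15.3) and HOX15 (11.6). HOX12, both ROC8 genes, HOX29 on chromosome 7 (SORBI_3007G036550) and ROC6 SORBI_3005G082860 had at least 1 library at 0 and have no such ratio.

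The class I branch of HOX6, HOX22 and HOX24 comprises the rice relatives of Arabidopsis ATHB7 and ATHB12, which water deficit and abscisic acid induce in that species. HOX22 and HOX24 were higher in all 6 drought libraries than in any control library, and HOX6 was not. HOX25, a class I gene outside this branch, also met this rule, as did 2.37% of all tested genes.

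HOX22 (SORBI_3006G163900, chromosome 6, 52167161 to 52168720) had 19.9, 23.6 and 36.1 CPM in the control libraries. In mild drought it had 50.1, 60.9 and 81.5 CPM, and in severe drought 64.9, 76.5 and 107 CPM. Every drought library lay above every control library, while the drought groups overlapped each other. The gene lists a homeodomain and a homeobox-associated leucine zipper in its deposited description. The log2 difference from the control was 1.27 ± 0.30 (SE) in mild drought and 1.64 ± 0.30 in severe drought, which is 2.42-fold and 3.12-fold. In edgeR's quasi-likelihood test the unadjusted p was 0.00206 and 0.000412, and the adjusted p over all 22080 tested genes was 0.528 and 0.294, so neither was called. Both drought levels against the control gave 1.46 ± 0.27 (edgeR adjusted p = 0.198, DESeq2 adjusted p = 0.000148). By unadjusted p of edgeR, HOX22 ranked 80 of 22080 genes in mild drought and 28 in severe drought. DESeq2, run as an alternative, called both, with adjusted p = 0.0219 and 0.000291. The mild drought call of DESeq2 was lost without control 1 (adjusted p = 0.302), control 2 (0.229) or mild drought 3 (0.238), and the severe drought call held without any one of the 9 libraries (adjusted p at most 0.0208). Severe and mild drought differed by 0.37 ± 0.29 on the log2 scale (edgeR, unadjusted p = 0.241).

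HOX24 (SORBI_3004G300300, chromosome 4, 63901938 to 63906312) had 6.99, 6.56 and 7.31 CPM in the control libraries. It had 21.8, 21.9 and 93.1 CPM in mild drought and 16.7, 19 and 100 CPM in severe drought. Its deposited description lists neither a homeodomain nor a leucine zipper domain, so its place here rests on the protein name. Of the 36 tested members, 8 list none of the domains looked for. The control libraries were nearly level, the lowest drought library lay above all of them, and 1 library of each drought group stood far above the other 2. In both groups the high library was number 3. The same 2 libraries had the lowest guard cell marker sums of all 9, 6.77 and 6.04 FPKM, from 8 genes of which 3 passed the filter. No other marker list had its 2 lowest or 2 highest sums in these libraries. Whether guard cell markers and HOX24 are linked was not tested. Log2 differences from the control were 2.71 ± 0.82 in mild drought and 2.70 ± 0.82 in severe drought, 6.55-fold and 6.51-fold. The edgeR adjusted p was 0.625 and 0.43 (unadjusted 0.00965 and 0.00984), and DESeq2 gave adjusted p = 0.0345 and 0.0264. Without mild drought 3 the mild drought difference was 1.65, and without severe drought 3 the severe drought difference was 1.36. The DESeq2 calls were then lost (adjusted p = 0.565 and 0.391), and they were also lost without control 1 (0.235 and 0.171) or control 2 (0.205 and 0.143); without control 3 the mild drought call was lost (0.0629).

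HOX6 (SORBI_3002G272900, chromosome 2, 65616732 to 65618588) had 14.2, 20.5 and 24.7 CPM in the control. Mild drought gave 13.6, 26.6 and 24.6 CPM, and severe drought 12.2, 16.2 and 32.4 CPM. The groups overlapped throughout. Differences from the control were 0.13 ± 0.41 and 0.03 ± 0.41 on the log2 scale. By length-scaled level in the control, HOX22 stood at 15.7 ± 5.02 FPKM, HOX6 at 10.1 ± 2.57 and HOX24 at 1.41 ± 0.117 (SD, n = 3). In severe drought the same order read 39.5 ± 9.35, 8.33 ± 4.24 and 7.38 ± 7.66 FPKM, with HOX6 and HOX24 no longer apart beyond their spread.

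**Figure D2:**
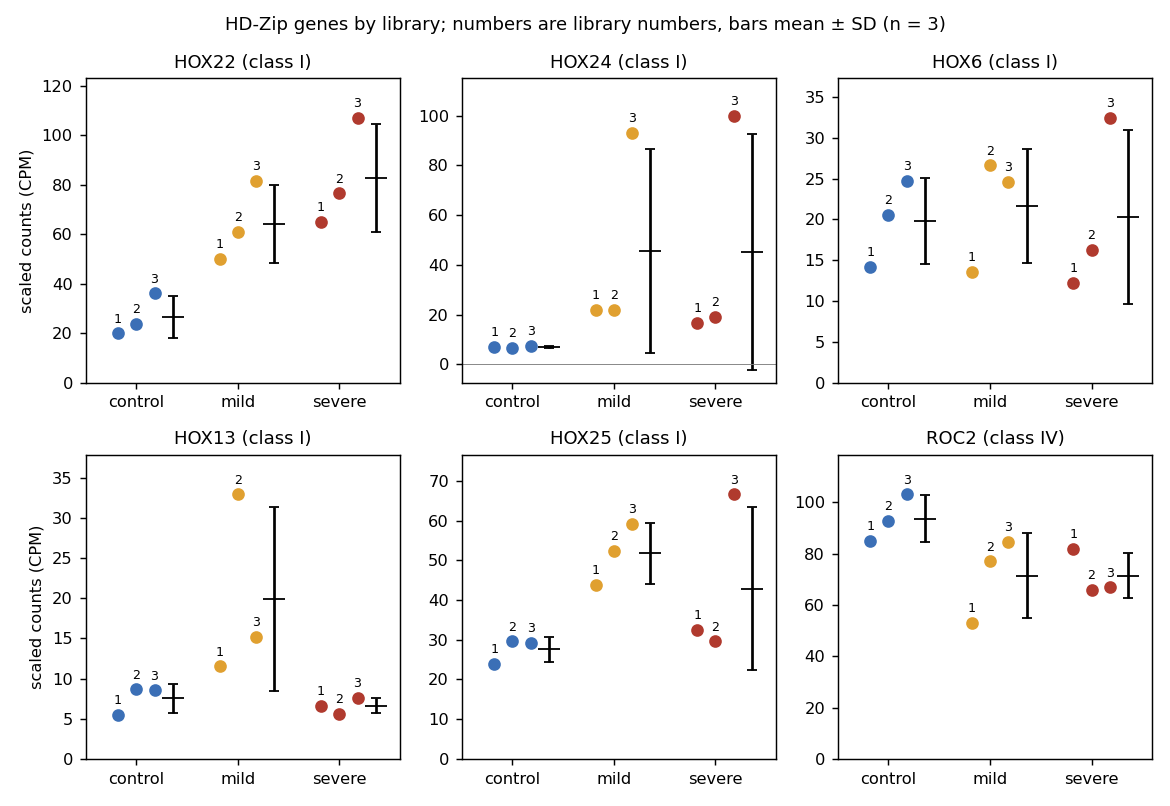
Scaled counts (CPM) of named HD-Zip genes in each of the 9 libraries; each panel is 1 gene, points are libraries of the control, mild drought and severe drought groups, the number beside a point is the library number, and bars give mean ± SD (n = 3). HOX22 lies higher in all drought libraries, HOX24 has 1 high library in each drought group (93.1 and 100 CPM), and the 3 mild drought libraries of HOX13 lie above its other 6.

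Among the other class I genes, HOX13 and HOX25 stood higher in mild drought, and the most abundant members overlapped between groups. HOX13 (SORBI_3001G476300, chromosome 1, 74847924 to 74850474) had 5.48, 8.65 and 8.52 CPM in control leaves, 11.5, 32.9 and 15.2 in mild drought and 6.63, 5.64 and 7.54 in severe drought. All mild drought libraries lay above all others, and severe drought overlapped the control. The log2 difference was 1.40 ± 0.40 for mild drought against control (edgeR unadjusted p = 0.00659, adjusted p = 0.603) and -1.59 ± 0.40 for severe against mild drought (0.0033 and 0.996). Mild drought 2, the library farthest out on the first principal component, held the highest value: without it the differences were 0.82 and -1.02. DESeq2 called neither with all libraries (adjusted p = 0.0892 and 0.119). Without mild drought 1 it called both, and with a replicate block it called the difference between severe and mild drought.

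HOX25 (SORBI_3002G189000, chromosome 2, 57498941 to 57501442) had 23.9, 29.6 and 29.2 CPM in control leaves, against 43.9, 52.4 and 59.2 CPM under mild drought. Severe drought gave 32.4, 29.6 and 66.6 CPM. Mild drought stood clear of the control, whereas in severe drought the lowest library exceeded the highest control library only past the printed digits. Log2 differences were 0.91 ± 0.31 (edgeR unadjusted p = 0.0158, adjusted p = 0.686) and 0.64 ± 0.30 (0.0668 and 0.61). Without severe drought 3 the severe drought difference was 0.17, and in FPKM the means were 14.4 ± 1.27 in the control and 18.2 ± 8.47 in severe drought (SD, n = 3).

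HOX5 (SORBI_3007G126400), the most abundant member, had 236, 253 and 170 CPM in control leaves, 228, 134 and 223 in mild drought and 200, 214 and 265 in severe drought. HOX16 (SORBI_3004G251300) had 162, 192 and 251 CPM in control leaves, 101, 179 and 141 in mild drought and 154, 147 and 179 in severe drought. Both overlapped between all groups. HOX16 shares 1765 bp of its span with SORBI_3004G251350, which had 6212 counts beside its own 47164; the counting settings are not given in the sources used here, so how reads were divided is unknown. HOX4 (SORBI_3002G233800) stayed between 55.1 and 107 CPM with overlapping groups.

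With all libraries, no class II gene was called by edgeR or DESeq2 (which gave HOX27 no p), and none had an unadjusted p under 0.05 in edgeR in any comparison. HOX19 (SORBI_3001G447400), HOX15 (SORBI_3001G278800) and HOX11 (SORBI_3002G220300) were its most abundant members. HOX19 had 33.1, 30.1 and 42.1 CPM in control leaves, 40.4, 60.3 and 73.2 in mild drought and 26.1, 66.5 and 71.3 in severe drought. HOX15 had 58.7, 64.8 and 34.5 CPM in control leaves, 51.4, 11.2 and 54.8 in mild drought and 30.2, 49.6 and 129 in severe drought. Groups overlapped for both, and the single severe drought library at 129 CPM stood above all others of HOX15. HOX15 overlaps SORBI_3001G278900 by 1866 bp (1145 counts beside 13518), which was itself highest in that library, at 15.4 CPM. HOX11 stayed between 20.8 and 45.4 CPM. Of the 8 tested class II genes, 7 had a log2 difference above 0 in mild drought and 7 in severe drought, with medians of 0.62 and 0.50. Over all tested genes, 11556 of 22080 lay above 0 in mild drought and 10588 in severe drought. Both comparisons share the control libraries, so the 2 counts are not separate support. The lowest edgeR adjusted p in class II was 0.814 and 0.602. Low counts weigh on the largest log2 differences of class II. HOX17 had 0.503, 0.169 and 4.18 CPM in control leaves, 0.504, 3.97 and 2.48 in mild drought and 15.8, 4.71 and 5.82 in severe drought. HOX7 had 0.159, 0.101 and 0.392 CPM in control leaves, 0.473, 0.693 and 1.24 in mild drought and 0.306, 0.233 and 2.61 in severe drought. HOX17 stood clear of the control in severe drought alone and HOX7 in mild drought alone. With all libraries neither was called; without control 3, DESeq2 called HOX17 in severe drought and in both drought levels against the control.

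Class III genes, whose rice and Arabidopsis relatives set leaf polarity, held the START domain and the MEKHLA domain together in 5 of 7 members. HOX10 (SORBI_3001G537300) had 55, 38.1 and 72.8 CPM in control leaves, 40.5, 60 and 33.5 in mild drought and 46.1, 29.9 and 44.5 in severe drought. HOX32 (SORBI_3001G157400) had 32.5, 44.8 and 43.3 CPM in control leaves, 27.5, 32.8 and 23.8 in mild drought and 32.1, 27.6 and 146 in severe drought. Severe drought 3 alone put HOX32 above the rest, and HOX10 overlapped in all groups. HOX9 (SORBI_3001G217200) had 28, 18.6 and 34.4 CPM in control leaves, 33, 37.2 and 25.8 in mild drought and 29, 59.2 and 39.3 in severe drought. HOX29 on chromosome 3 (SORBI_3003G028300) ran from 9.38 to 71.9 CPM, both extremes in severe drought. Medians over the 6 tested class III genes were -0.02 in mild drought and 0.49 in severe drought on the log2 scale, with no call.

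Class IV genes, relatives of rice ROC and Arabidopsis GLABRA2-type epidermal factors, split into a few steady genes and many with next to no counts. ROC2 on chromosome 6 (SORBI_3006G223300, 56941457 to 56947804) had 85, 92.8 and 103 CPM in control leaves, 52.9, 76.9 and 84.5 in mild drought and 81.7, 65.8 and 66.8 in severe drought. It was the single tested member with every library of both drought groups below every control library. Over all tested genes 3.24% met the same rule, so 1 such member of 36 is not read as a result about the family. ROC2 on chromosome 6 differed little in size. The log2 difference was -0.39 ± 0.20 in each drought group, and -0.39 ± 0.17 for both against the control (edgeR unadjusted p = 0.0498, adjusted p = 0.571). ROC6 on chromosome 2 (SORBI_3002G270900) had 30.7, 35.1 and 32.7 CPM in control leaves, 38.6, 33 and 47.9 in mild drought and 41.8, 41.9 and 40 in severe drought. Its severe drought libraries lay above the control in CPM, whereas the FPKM means were 8.57 ± 0.248 and 8.77 ± 0.793 (SD, n = 3). ROC1 (SORBI_3007G065300) ran from 27.4 to 71.7 CPM with overlapping groups.

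The name ROC6 stands on 12 genes, 8 of them within 126 kb of chromosome 5, between 11038374 and 11164458. They are not all adjacent, with a gap of 77.3 kb between SORBI_3005G082860 and SORBI_3005G083100. Of these 8, 5 list a START domain and 0 a homeodomain, and 4 had no count in any library. The single tested gene of the cluster, SORBI_3005G082860, had 59 counts in all, from control 2 and mild drought 2 and 3. How alike the sequences of these 8 genes are, and so whether reads could be shared among them, was not tested. For ROC2 on chromosome 3 (SORBI_3003G199001) the gene count is uncertain: 55.6% of its 4628 counts belong to 3 long non-coding transcripts with its identifier, of which TCONS_00038742 alone held 43.9%. For HOX26 a long non-coding transcript deposited under the name AS1 held 64.1% of 78 counts. No other member had lncRNA counts under its identifier.

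Detection of members differed between libraries of a group. Members with at least 1 count numbered 36, 50 and 38 in the control, 34, 49 and 36 in mild drought and 36, 38 and 33 in severe drought. Control 2 and mild drought 2 stood above the rest, and the same libraries had the most genes with a count in the whole table (29760 and 28676, against at most 25066 elsewhere). Of the 20 members that did not pass the filter, 14 had a count in control 2 and 13 in mild drought 2, with 147 and 192 counts in all; in the other 7 libraries 0 to 3 did. Detection did not follow the total count: control 3, with the most counts (41228478), had a count for 3 of these 20 genes, and control 2, with 33399928, for 14. The highest value of a member fell most often in severe drought 3, which held the highest CPM of 13 of the 36 tested members and of 11.1% of all tested genes. Control 1 and control 2 held the highest CPM of 0 members (8.43% and 11.1% of all genes).

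**Figure D3:**
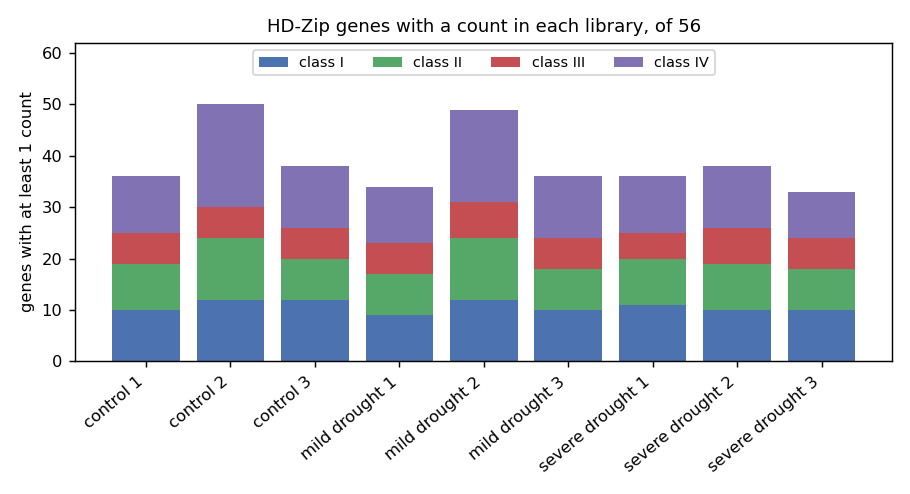
Number of the 56 HD-Zip genes with at least 1 count in each library, as bars stacked by class. Control 2 (50 genes) and mild drought 2 (49) stand above the other libraries (33 to 38).

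Counted over the 36 tested members, each comparison was read beside the share of all tested genes that met the same rule, called the background here. DESeq2 gave an adjusted p for 34 of these members in mild drought and 35 in each other comparison, and its background is over the 21307 to 23740 genes to which it gave one. The comparisons with the control share its 3 libraries. In mild drought against control, 27 members had a log2 difference above 0 and 9 below, with a median of 0.31 (0.02 over all genes). edgeR called 0 members at an adjusted p under 0.05 (background 0%), with a lowest adjusted p of 0.528. At an unadjusted p under 0.05 in edgeR, 4 members were higher (HOX13, HOX22, HOX24 and HOX25; background 3.34%) and 0 lower (3.07%). DESeq2 called 2 higher (background 0.54%) and 0 lower (background 79 of 21307 genes). Groups did not overlap for 6 higher members (background 6.2%) and 1 lower (6.38%).

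In severe drought against control, 25 members lay above 0 and 11 below, with a median of 0.26 (-0.02 over all genes), and edgeR called 0 (background 0%). At an unadjusted p under 0.05 in edgeR, 2 members, HOX22 and HOX24, were higher (background 4.02%) and 0 lower (4.65%). DESeq2 called the same 2 (background 0.684%). Groups did not overlap for 5 higher members (background 7.64%) and for 1 lower (9.82%).

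Between severe and mild drought, 16 members lay above 0 and 20 below, with a median of -0.09 (-0.03 over all genes). edgeR called 0 members (background 0%), and at an unadjusted p under 0.05 it gave 0 higher (background 1.35%) and 1 lower, HOX13 (2.34%). DESeq2 called 0 members (background 0.0674% in either direction). Non-overlap was seen in 1 higher member, HOX17 (background 2.99%), and 1 lower, HOX13 (4.83%). With both drought levels set against the control, 27 members lay above 0 and 9 below (median 0.18, against -0.00 over all genes), and edgeR called 0 (background 0%). At an unadjusted p under 0.05 in edgeR, HOX22, HOX24 and HOX25 were higher (background 3.92%) and ROC2 on chromosome 6 lower (4.82%). DESeq2 called 2 higher (background 0.835%), and groups did not overlap for 3 higher (2.37%) and 1 lower (3.24%).

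**Figure D4:**
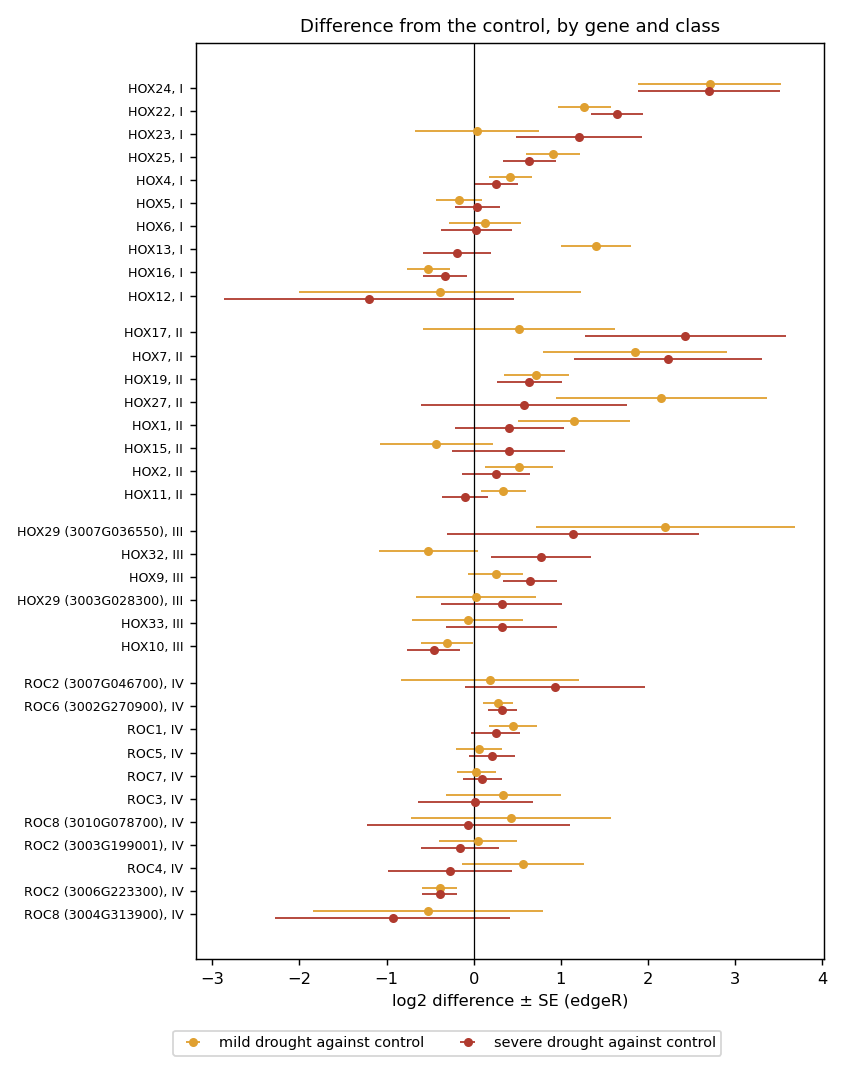
Log2 difference from the control in mild and severe drought for the tested HD-Zip genes by class, with the SE from edgeR as bars; SORBI_3005G082860, which had no count in severe drought, is left out. HOX24 lies at 2.71 and 2.70, with wide bars of 0.82 to each side. HOX22 lies at 1.27 and 1.64, with bars of 0.30. HOX13 lies at 1.40 in mild drought, with a bar of 0.40, and at -0.19 in severe drought. The other points above 1 have bars of 0.64 or more to each side.

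Genes around the family were counted by lists of protein names, and edgeR called none of their genes in any comparison. The background shares at an unadjusted p under 0.05 are those given above. For DESeq2, the background was 115 genes higher and 79 lower of 21307 in mild drought. In severe drought it was 154 higher and 160 lower of 22507. Of 37 tested abscisic acid signalling genes, 9 were higher and 2 lower at an unadjusted p under 0.05 in edgeR in mild drought, and 9 and 2 in severe drought. DESeq2 called 4 higher and 1 lower in mild drought, and 3 and 1 in severe drought. Among them, protein phosphatase 2C 30 (SORBI_3001G424400), of a family whose relatives in Arabidopsis repress abscisic acid signalling, went from 6.5 ± 3 CPM in the control to 53.6 ± 33 under mild and 44.7 ± 30 in severe drought (SD, n = 3; DESeq2 adjusted p = 0.000493 and 0.00156). The abscisic acid receptor PYL4 (SORBI_3001G403300) went from 27.8 ± 6.98 CPM to 5.35 ± 3.04 and 7.33 ± 1.41 (DESeq2 adjusted p = 3.93e-05 and 0.00223). Of 38 tested other homeobox factors, 1 was higher and 0 lower in mild drought and 3 higher and 1 lower in severe drought at an unadjusted p under 0.05 in edgeR. DESeq2 called 1 of them, Zinc-finger homeodomain protein 6 (SORBI_3009G244200), in severe drought. Leaf polarity genes (17 tested) gave 0 higher and 1 lower in each drought group, and epidermis and stomata genes (10 tested) gave 1 higher, the factor ICE1, in mild drought and 0 in severe drought. Beside a background of 3.07% to 4.65%, a single gene in a list of 10 to 38 is not read as a result about the list.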

How the data were processed

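The authors deposited whole-number read counts per gene and FPKM per gene (a level relative to transcript length and sequencing depth), per the file headers, with 1 column per library. STAR, StringTie 1.3.3b and HISAT2 2.0.4 are named in the submitters' processing notes; their roles, the genome build and the counting settings are not given in the sources used here. Positions are whole gene models as the deposited tables give them.

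The count table held 44775 entries, and the 34366 in the mRNA FPKM table are called genes. They were tested with edgeR 4.0.16 in R 4.3.3 (quasi-likelihood F test, filterByExpr, TMM, all 9 libraries, no covariate), with Benjamini-Hochberg adjustment over 22080 genes and a threshold of 0.05. All tests were two-sided. CPM were computed from the counts with TMM. DESeq2 1.42.0 on the counts and limma 3.58.1 on log2(FPKM + 1) and log2(FPKM + 0.1) were alternatives. The common biological coefficient of variation was 0.503, so for genes with many counts precision was set by the spread between libraries rather than by depth. For members with few counts, such as HOX7 (3 to 53 per library), depth limited it too. The scripts were tested on simulated data.

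Members and lists were chosen with earlier results of these data known. Named with values were members at an unadjusted p under 0.05, the 3 with the highest mean FPKM in each class, HOX6, HOX22 and HOX24, and members whose groups did not overlap in the same direction in both drought groups. That rule named 16 genes; others named with values (HOX4, HOX7, HOX17, HOX26, HOX27, HOX29, ROC5, ROC7, the ROC6 cluster and ROC2 on chromosomes 3 and 7) were chosen after their values were seen. Lists were taken by Swiss-Prot name. The supplied table of gene symbols could not be matched to the identifiers and was not used.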

Additional observations from a re-analysis of the deposited data

How the results depend on the processing

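Differences of HOX13, HOX22, HOX24, HOX25 and ROC2 (SORBI_3006G223300) were recomputed in 14 pairs of gene and comparison. All 262 alternative values kept their direction, and 6 passed the threshold, all of them by DESeq2 (HOX22 and HOX24 in mild drought, severe drought and both). The pairs were picked from these same data, and the groups overlapped in none of them. Refits could therefore hardly reverse a direction, and the kept direction is no separate support. With 1 library left out, HOX22 ranged from 1.07 to 1.57 in mild drought and 1.42 to 1.93 in severe drought, and HOX24 from 1.65 to 3.05 and 1.36 to 3.10.

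edgeR called 0 members and 0 genes in all 4 comparisons. DESeq2 called 2 members in mild drought, severe drought and both, and 194, 314 and 379 genes, with 16 genes between severe and mild drought. Limma on log2(FPKM + 1) called 2 genes in mild drought and 7 in both; on log2(FPKM + 0.1) it called 2 and 2. With only the groups compared, edgeR called 2 genes in severe drought. Leaving out 1 library gave edgeR 0 to 1 genes in mild drought, severe drought and both.

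DESeq2 with 1 library left out, chosen after seeing the data, called 0 to 3 members in mild drought, among 61 to 339 genes. It called 1 to 3 members in severe drought, among 114 to 519 genes, and 1 to 3 in both, among 118 to 569 genes. Between severe and mild drought it called 0 to 1 members, among 7 to 83 genes. Over all tested genes, libraries of the same number were not more alike than others. Correlations of their deviations from the group mean ran from -0.374 to 0.371. Libraries with different numbers, in different groups, gave -0.416 to 0.551. HOX22 nevertheless rose from number 1 to number 3 in every group. Whether the numbers link libraries for single genes was not tested. With a replicate block edgeR called 0 members in every comparison; DESeq2 with the block, also added later, called 2 members in mild drought, severe drought and both, among 397, 936 and 434 genes, and 1, HOX13, between severe and mild drought, among 737 genes against 16 without the block. The cause of these differences was not tested.

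Of the 20 untested members, 14 had a count in control 2 and 3 in the deeper control 3. Without control 3, DESeq2 also called HOX17 in severe drought and in both. HOX25 was called in mild drought by DESeq2 without severe drought 3, and ROC2 (SORBI_3006G223300) under none of these settings.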

Other observations

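The protein phosphatase 2C 30 gene (SORBI_3001G424400) was set beside HOX24 after its values were seen. It had 4, 5.68 and 9.82 CPM in control leaves, 27.3, 42.9 and 90.6 in mild drought and 16.4, 41.7 and 76.1 in severe drought. As for HOX24, the highest library of each drought group was number 3. Protein phosphatase 2C 68 (SORBI_3002G172000) had 3.5, 6.66 and 7.97 CPM in control leaves, 21.3, 35.3 and 49.4 in mild drought and 16.9, 35.6 and 52.8 in severe drought. Number 3 was the highest library of all 3 groups for both phosphatase genes. Other genes of the name protein phosphatase 2C 68 were mixed. SORBI_3001G446900 was highest in number 3 of both drought groups, at 80.2 and 74.2 CPM. SORBI_3002G360701 and SORBI_3003G139366 were highest in number 1 of both, at 88 and 90.9 CPM and at 12.8 and 18.5 CPM. Protein phosphatases 2C 6 (54.4 and 47.2 CPM), 37 (22.5 and 23.6) and 50 (267 and 208) were highest in number 3 of both drought groups. HD-Zip genes were also mixed. HOX22 was highest in number 3 of all 3 groups, at 36.1, 81.5 and 107 CPM. HOX25 was highest in number 3 of both drought groups, at 59.2 and 66.6 CPM. HOX13 was highest in mild drought 2, at 32.9 CPM, and HOX17 in severe drought 1, at 15.8 CPM.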
